A study of Homo sapiens with 6 samples.

Results

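The cytosolic and mitochondrial heat shock genes HSPA1A, HSPA1B, HSPA8, HSPH1, HSPB1, HSP90AA1, HSP90AB1, DNAJB1, HSPD1 and HSPE1 were followed on 6 arrays of 22RV1, an established human prostate cancer cell line. Every probe whose gene name in the scanner files was one of these 10 was taken, which gave 17 of the 58201 gene probes on the array. All 17 were well above background in at least 1 dye on all 6 arrays and were among the 27503 probes tested, which named 19045 gene symbols. The rule takes genes by name and uses no measured value, although the list was drawn up with earlier results of these arrays known.

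Each array was hybridised with 2 dyes. Cy5 held RNA of 22RV1 cells that carried a lentiviral vector for miR-338-5p (replicates 1, 2 and 3) or for miR-421 (a sample labelled as a pool, and replicates 1 and 2). Cy3 held RNA of control 22RV1 cells on every array, and the labels name a red fluorescent protein vector of the same pLemiR type for the control. All lines, control included, were kept under puromycin, so the vector backbone and the selection were shared. The labels describe the cells as stable lines positive for SPINK1. They do not say what was pooled, what the letter C in the other titles stands for, or whether the arrays held separate cultures, so every SD and p-value measures only the spread between these arrays. A log2 ratio is Cy5 over Cy3, so a value below 0 means that the miRNA line was dimmer than control. No array had the dyes swapped. Values are given in the order miR-338-5p replicates 1, 2 and 3, then the miR-421 pool and replicates 1 and 2.

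Heat shock proteins are chaperones, which bind other proteins while they fold or unfold. HSP70 proteins (HSPA genes) work in cycles of ATP use that are started by J-domain partners such as DNAJB1 and reset by nucleotide exchange factors such as HSPH1. They can pass clients on to HSP90, which holds kinases and hormone receptors ready for their signals. HSPD1 and HSPE1 form the folding chamber of the mitochondrial matrix. Heat and other protein damage activate HSF1, a transcription factor that binds repeats of a short GAA unit in many of these promoters. MicroRNAs act by pairing, mainly through bases 2 to 8 (the seed), with messenger RNAs whose output they lower.

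The overexpressed miRNAs are shown first because they define the groups. Their mature sequences are from RefSeq (GRCh38.p14), with the seed in capitals. The miR-338-5p entry lies at chr17:81125923-81125944 and the miR-421 entry at chrX:74218392-74218414, both on the minus strand. The seeds differ.
hsa-miR-338-5p: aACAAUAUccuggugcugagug
hsa-miR-421: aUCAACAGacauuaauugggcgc

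Promoters were compared because several members moved together, as given further on. In RefSeq (GRCh38.p14) a window of 250 bases before to 50 after each transcript start was searched on both strands for paired inverted units, GAANNTTC or TTCNNGAA, which may overlap. GAANNTTC was present in 6.77% of 35116 windows of this length, and in 9 of the 16 windows of the heat shock genes, which belong to 8 of the 10 genes. It was not found in the windows of HSPH1 and HSPE1. TTCNNGAA was present in 7.74% of all windows and in 4 of the 16 member windows, 1 each of HSPA8, HSP90AA1, HSP90AB1 and HSPD1. The same 4 windows held 3 units in a row, GAANNTTCNNGAA or its reverse complement TTCNNGAANNTTC, against 0.49% of all windows. A match describes the letters of the window and is not a binding site. By the brightest probes, of these 4 genes HSPA8 fell in both lines, HSP90AA1 under miR-421, and HSP90AB1 and HSPD1 in neither. With GAANNTTC only, HSPA1A and HSPA1B fell in both lines, DNAJB1 fell under miR-338-5p and HSPB1 rose under miR-421. Without a match, HSPH1 fell in both lines and HSPE1 under miR-421. A link between matches and changes was not tested. The windows below are those of the 3 HSP70 genes with the lowest mean ratios under miR-338-5p and of HSPD1, with matches in capitals. HSPA1A lies at chr6:31815293-31815592 and HSPA1B at chr6:31827488-31827787, both on the plus strand, and these neighbours share an identical run of 49 bases. HSPA8 lies at chr11:123062087-123062386 and HSPD1 at chr2:197499791-197500090, both on the minus strand.
HSPA1A: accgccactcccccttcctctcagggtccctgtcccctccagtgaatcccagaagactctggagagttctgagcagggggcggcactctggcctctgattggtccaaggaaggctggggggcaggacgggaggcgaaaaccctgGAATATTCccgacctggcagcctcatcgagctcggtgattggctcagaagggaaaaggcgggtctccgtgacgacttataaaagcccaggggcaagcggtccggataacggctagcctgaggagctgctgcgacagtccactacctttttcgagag
HSPA1B: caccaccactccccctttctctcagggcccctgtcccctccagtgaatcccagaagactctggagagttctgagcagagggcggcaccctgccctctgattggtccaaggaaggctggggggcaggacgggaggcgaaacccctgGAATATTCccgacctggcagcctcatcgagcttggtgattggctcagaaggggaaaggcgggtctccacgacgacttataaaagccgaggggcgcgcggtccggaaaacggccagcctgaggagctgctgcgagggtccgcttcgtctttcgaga
HSPA8: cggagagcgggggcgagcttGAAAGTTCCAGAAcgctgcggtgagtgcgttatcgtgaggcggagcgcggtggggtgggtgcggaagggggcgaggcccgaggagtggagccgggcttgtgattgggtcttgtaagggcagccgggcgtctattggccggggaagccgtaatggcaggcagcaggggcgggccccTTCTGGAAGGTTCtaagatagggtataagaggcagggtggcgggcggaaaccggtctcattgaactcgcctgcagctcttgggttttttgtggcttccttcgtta
HSPD1: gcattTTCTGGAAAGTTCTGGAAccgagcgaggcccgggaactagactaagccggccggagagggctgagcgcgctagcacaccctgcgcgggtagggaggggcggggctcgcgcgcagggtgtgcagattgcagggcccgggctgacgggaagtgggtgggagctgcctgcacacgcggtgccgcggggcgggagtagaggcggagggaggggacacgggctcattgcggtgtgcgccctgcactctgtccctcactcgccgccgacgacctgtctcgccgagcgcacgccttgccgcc

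The HSPE1 probes are printed because they carry different transcript names of 1 gene but share bases. Probe A_23_P56922 is placed at chr2:198367803-198367942 (hg19, plus strand, per the file headers). Its 60 bases span 140 genomic bases, so it crosses a splice junction. Probe A_33_P3325306 lies at chr2:198367823-198367882, carries an Ensembl transcript name and is unbroken in the genome. The 31 bases they share are in capitals.
A_23_P56922: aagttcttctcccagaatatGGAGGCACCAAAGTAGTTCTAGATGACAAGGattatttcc
A_33_P3325306: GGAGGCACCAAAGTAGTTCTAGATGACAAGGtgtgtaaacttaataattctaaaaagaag

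The cells were checked by their markers. All 8 prostate epithelial markers read here (KLK3, KLK2, HOXB13, KRT8, KRT18, SPINK1, EPCAM and CDH1) were well above background in Cy3 on all 6 arrays. SPINK1 itself lay between 0.774% and 1.41% of control on the miR-421 arrays, and at 12.2%, 23.4% and 0.913% on the miR-338-5p arrays. In Cy3, 47.9%, 47.6% and 47.3% of gene spots were well above background on the miR-338-5p arrays. The Cy3 shares were 44.4%, 44.3% and 44.4% on the miR-421 arrays, so the control dye differed between the lines. The cause was not tested. In Cy5 the share was 41.9% to 48.3%, lowest on miR-421 replicate 1, and 0 gene spots were saturated. Of 13 fibroblast, leukocyte and endothelial markers read here, 12 were on the array and 9 were tested. COL1A2, PECAM1 and KDR were not above background on any array. Under miR-338-5p 0 of the 9 passed the threshold by limma, and 0 had an unadjusted p under 0.05. Over all gene symbols 28.9% had such an unadjusted p. LUM still measured 1.88, 1.8 and -0.77 on the miR-338-5p arrays. Under miR-421 1 of the 9 passed, LUM, which rose by 2.14 (log2; limma, adjusted p = 0.0437). Over all gene symbols 10.2% rose under miR-421. DCN, also a fibroblast marker, measured 1.9, 0.19 and 1.3 under miR-421 and 0.24, 0.6 and -1.02 under miR-338-5p. Its miR-421 mean of 1.13 missed the threshold (limma, adjusted p = 0.0976). The remaining tested markers had means between -0.16 and 0.15 in both lines. Summed over the 9 markers, the linear Cy5 intensity was 670 to 1093 on the miR-338-5p arrays and 1035 to 1797 on the miR-421 arrays, and the Cy3 intensity was 745 to 790. Their part in the results was not tested.

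Of the 10 heat shock genes, 4 fell in both lines (HSPA1A, HSPA1B, HSPA8 and HSPH1), against 4.18% of all gene symbols. Under miR-338-5p 5 of the 10 genes fell by their brightest probe (HSPA1A, HSPA1B, HSPA8, HSPH1 and DNAJB1) and none rose, while 5.41% of all gene symbols fell and 4.23% rose. Under miR-421 6 genes fell (HSPA1A, HSPA1B, HSPA8, HSPH1, HSP90AA1 and HSPE1) and HSPB1 rose, while 13.5% of all gene symbols fell and 10.2% rose. By probe, 6 of 17 fell in both lines, against 4.05% of all tested probes. A call is an adjusted p under 0.05 from limma with Benjamini-Hochberg adjustment over all tested probes, two-sided. Both comparisons use the same control cells in Cy3, so they are not independent of each other. With no dyes swapped, a change in both lines cannot be told apart from a dye effect or the control's own state. In these bulk samples fewer cells with a transcript and less RNA per cell cannot be told apart.

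By probe, 7 of 17 fell under miR-338-5p, against 5.22% of all tested probes, and 0 rose, against 3.79%. Under miR-421 10 of 17 fell, against 12.5% of all tested probes, and 1 rose, against 9.19%. The 10 genes had a median log2 ratio of -0.70 in the miR-338-5p line and -0.81 in the miR-421 line, and the median of all tested probes was 0 in both. On single arrays the median of the 10 genes was -0.78, -1.02, -0.61, -0.69, -0.54 and -0.77. It was below 0 on every array, and the groups overlapped. Of the 10 genes, 9, 10, 7, 7, 8 and 7 were below 0 on these arrays. Over all 17 probes, 8 were below 0 on all 6 arrays, against 17.2% of tested probes.

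**Figure D1:**
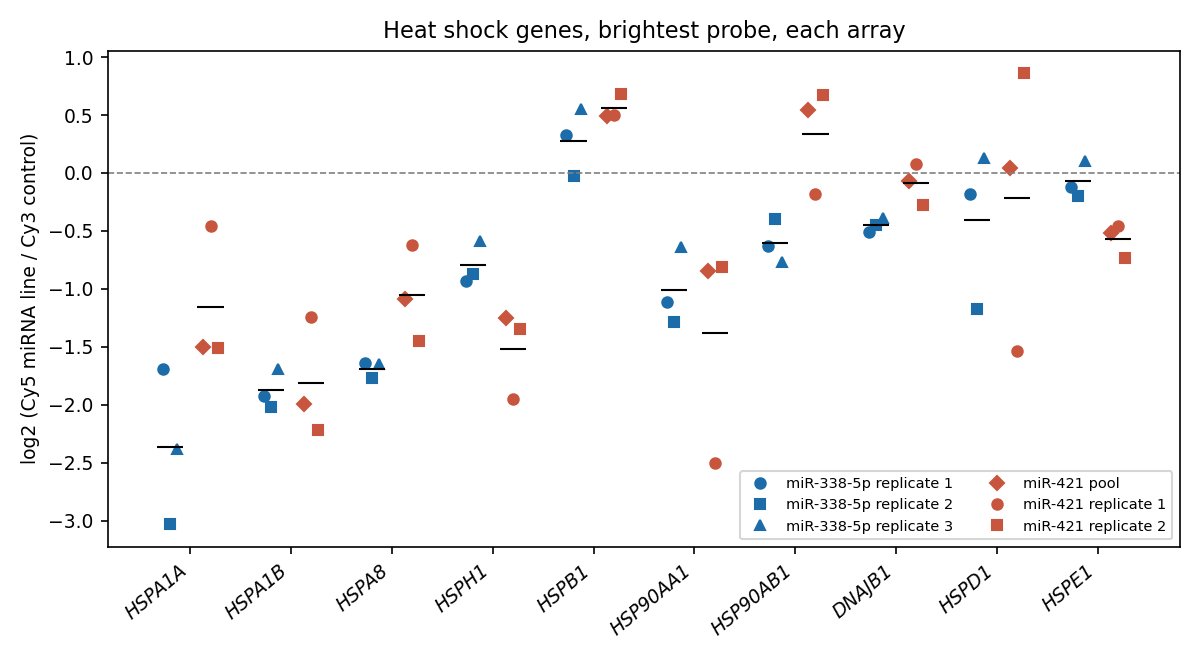
Log2 ratio of Cy5 (miRNA line) over Cy3 (control) for the brightest probe of each heat shock gene, 1 marker per array and a bar at the mean of 3 arrays. HSPA1A, HSPA1B, HSPA8, HSPH1 and HSP90AA1 lie below 0 on all 6 arrays, while HSPB1 lies at or above -0.03 and HSPD1 ranges from -1.54 to 0.86.

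HSPA1A and HSPA1B encode the inducible HSP70 protein, at neighbouring loci. The HSPA1A probe (A_23_P111132, NM_005345) lies at chr6:31785491-31785550 (hg19, plus strand). Its log2 ratios were -1.69, -3.03 and -2.38 on the miR-338-5p arrays and -1.50, -0.46 and -1.51 on the miR-421 arrays. Every miR-338-5p array was lower than every miR-421 array, and miR-421 replicate 1 stayed closest to control. The mean was -2.36 ± 0.67 (SD, n = 3) under miR-338-5p, or 19.4% of control with a 95% interval of 11.6% to 32.4% (limma, adjusted p = 0.0144). It was -1.16 ± 0.60 (SD, n = 3) under miR-421, or 44.7% of control with an interval of 26.8% to 74.7% (limma, adjusted p = 0.0439). Only 11 of the tested probes had a lower mean under miR-338-5p, and 304 did under miR-421. The probe was printed 10 times on each array, and the SD between its 9 or 10 usable spots was 0.04 to 0.08, so the spread between arrays was far larger than the spread between spots. The miR-338-5p call held under 13 of 17 alternatives and the miR-421 call under 9. The miR-338-5p call was lost with its own 3 arrays or a trended variance, and missed the threshold without miR-338-5p replicate 2 (-2.03, adjusted p = 0.0514) or replicate 3 (-2.36, adjusted p = 0.0669), which is also the highest limma value over its alternatives. The miR-421 call missed it without the pool (-0.99, adjusted p = 0.159), without miR-421 replicate 2 (-0.98, adjusted p = 0.186, the highest limma value over its alternatives) and without miR-338-5p replicate 3 (-1.16, adjusted p = 0.071). It also missed it, with adjusted p-values from 0.0514 to 0.0923, with the software's ratio, the authors' table, no filter on dim probes, its own 3 arrays or a trended variance.

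The HSPA1B probe (A_33_P3415430, NM_005346; chr6:31797870-31797929, hg19, plus strand) shares no identical run longer than 7 bases with the HSPA1A probe, although the genes themselves are near copies. Neither probe was compared with the other gene's transcript, so signal from the other gene in either probe was not tested. HSPA1B measured -1.92, -2.02 and -1.69 under miR-338-5p, against -1.99, -1.24 and -2.22 under miR-421. The groups overlapped, and replicate 1 of miR-421 was again the array nearest to control. The means were -1.87 ± 0.17 (SD, n = 3), or 27.3% of control (limma, adjusted p = 0.00831), and -1.81 ± 0.51 (SD, n = 3), or 28.4% of control (limma, adjusted p = 0.00509). The miR-421 call held under all 17 alternatives and the miR-338-5p call under 16 of 17. HSPA1A was lower than HSPA1B in log2 ratio on 2 of 6 arrays, miR-338-5p replicates 2 and 3.

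HSPA8 encodes the constitutive HSP70 that handles clients in unstressed cells. Its probe (A_33_P3390758, NM_153201) lies at chr11:122929478-122929537 (hg19, minus strand). HSPA8 measured -1.64, -1.77 and -1.65 under miR-338-5p, against -1.09, -0.62 and -1.45 under miR-421. The miR-338-5p arrays lay close together and below every miR-421 array. The mean was -1.69 ± 0.07 (SD, n = 3) under miR-338-5p, or 31.1% of control with an interval of 24.2% to 39.9% (limma, adjusted p = 0.00635). Under miR-421 it was -1.05 ± 0.42 (SD, n = 3), or 48.2% of control (limma, adjusted p = 0.00954), and that call held under all 17 alternatives. HSPA8 was nearer to control than HSPA1B on all 6 arrays (0 of 6 the other way), by as little as 0.04 on miR-338-5p replicate 3.

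HSPH1, the HSP110 exchange factor that resets HSP70, had the opposite order of the lines. Its brighter probe (A_23_P88119, NM_006644; chr13:31710796-31710855, hg19, minus strand) measured -0.93, -0.87 and -0.59 under miR-338-5p, against -1.25, -1.95 and -1.35 under miR-421. Every miR-421 array was lower than every miR-338-5p array. The means were -0.79 ± 0.18 (SD, n = 3), or 57.6% of control (limma, adjusted p = 0.0313), and -1.52 ± 0.38 (SD, n = 3), or 34.9% of control (limma, adjusted p = 0.00449). The second probe (A_33_P3348752) gave -0.53 ± 0.18 and -1.03 ± 0.17 (SD, n = 3 each), again with no overlap of the groups (limma, adjusted p = 0.0284 and 0.00379). Both probes kept the miR-421 call under every alternative run. The miR-338-5p call of the brighter probe held under 5 of 17 alternatives, with limma adjusted p-values from 0.012 to 0.116. It was lost when any single array other than miR-421 replicate 1 was left out, with values from -0.90 to -0.73.

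DNAJB1, the J-domain partner that starts the HSP70 cycle, fell under miR-338-5p. Its probe (A_23_P90062, NM_006145; chr19:14625803-14625862, hg19, minus strand) measured -0.51, -0.45 and -0.39 under miR-338-5p, against -0.07, 0.08 and -0.28 under miR-421. The miR-338-5p arrays were the 3 lowest. The miR-338-5p mean was -0.45 ± 0.06 (SD, n = 3), or 73.4% of control (limma, adjusted p = 0.0281), and the miR-421 mean was -0.09 ± 0.18 (SD, n = 3; limma, adjusted p = 0.462). The miR-338-5p call held under 8 of 17 alternatives, with limma adjusted p-values from 0.0192 to 0.178. It was lost without any 1 of the miR-338-5p arrays (values from -0.48 to -0.42) and without the miR-421 pool (-0.45).

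HSP90AA1 encodes the inducible cytosolic HSP90 and HSP90AB1 the constitutive one. The brightest HSP90AA1 probe (A_33_P3665777; chr14:102547395-102547454, hg19, minus strand) measured -1.11, -1.29 and -0.64 under miR-338-5p, against -0.85, -2.50 and -0.81 under miR-421. The groups overlapped, and miR-421 replicate 1 was lower than the other 5 arrays. The means were -1.01 ± 0.33 (SD, n = 3; limma, adjusted p = 0.123) and -1.38 ± 0.96 (SD, n = 3), or 38.3% of control (limma, adjusted p = 0.0379). The other probes, A_23_P162874 and A_32_P199252, gave -1.08 ± 0.29 and -0.81 ± 0.24 under miR-338-5p (SD, n = 3; limma, adjusted p = 0.0559 and 0.0498). They gave -1.43 ± 0.71 and -1.18 ± 0.48 under miR-421 (SD, n = 3; limma, adjusted p = 0.0172 and 0.0122). All 3 probes were below 0 on all 6 arrays, so the direction did not depend on the probe, while the miR-338-5p call did. The miR-421 call of the brightest probe held under 9 of 17 alternatives (limma adjusted p from 0.0182 to 0.133). It was lost when any single array other than miR-421 replicate 1 was left out, with means from -1.67 to -1.38. Without miR-421 replicate 1 the miR-421 mean was -0.83 and the call held, and the brightest probe also passed under miR-338-5p (limma, adjusted p = 0.016, with 0.348 the highest over the alternatives).

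HSP90AB1 did not pass the threshold in either line. Its brighter probe (A_23_P145089) spans 837 genomic bases for its 60 and so crosses a splice junction (chr6:44219983-44220819, hg19, plus strand). It measured -0.63, -0.40 and -0.77 under miR-338-5p, against 0.54, -0.18 and 0.67 under miR-421. All miR-338-5p arrays lay below all miR-421 arrays. The means were -0.60 ± 0.19 and 0.34 ± 0.46 (SD, n = 3 each; limma, adjusted p = 0.0846 and 0.199). Without miR-421 replicate 1 both passed, at -0.60 and 0.61 (limma, adjusted p = 0.0189 and 0.0311, against highest values of 0.272 and 0.677 over the alternatives). The second probe (A_24_P823684), at chr6:44219211-44219270, gave -0.35 ± 0.43 and -0.16 ± 0.11 (SD, n = 3 each), with overlapping groups, and so did not show the same gap between the lines. HSP90AA1 had the lower log2 ratio of the pair on 5 of 6 arrays, and the gap was widest, at -2.32, on miR-421 replicate 1.

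HSPB1, a small heat shock protein that holds unfolded proteins without using ATP, was the member that rose. Its brightest probe (A_33_P3287646; chr7:75933550-75933609, hg19, plus strand) measured 0.33, -0.03 and 0.55 under miR-338-5p, against 0.49, 0.50 and 0.68 under miR-421. The groups overlapped. The means were 0.28 ± 0.29 (SD, n = 3; limma, adjusted p = 0.172) and 0.56 ± 0.11 (SD, n = 3), or 147% of control (limma, adjusted p = 0.0232). Its other probes did not pass in either line. A_21_P0013662 gave -0.05 ± 0.52 and 0.30 ± 0.34, and A_33_P3353242 gave -0.17 ± 0.13 and 0.05 ± 0.14 (SD, n = 3 each). The last of these was dim, with log2 intensities of 6.50 to 6.93 in Cy5 against 13.29 to 14.16 for the brightest. The rise held under 10 of 17 alternatives, with limma adjusted p-values from 0.0132 to 0.248. It was lost without any 1 of the miR-421 arrays (values from 0.49 to 0.59), and it was 0.30 in the authors' deposited table of ratios.

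The mitochondrial pair differed in spread. HSPD1, the HSP60 subunit, was read by 1 probe (A_32_P25273; chr2:198351381-198351440, hg19, minus strand). It measured -0.18, -1.17 and 0.13 under miR-338-5p, against 0.04, -1.54 and 0.86 under miR-421. Its arrays lay on both sides of 0 in either line, and replicate 2 of miR-338-5p and replicate 1 of miR-421 were low. The means were -0.41 ± 0.68 and -0.22 ± 1.22 (SD, n = 3 each; limma, adjusted p = 0.641 and 0.782). The 95% intervals, 34.2% to 166% and 39.1% to 190% of control, span both lower and higher levels. The Cy3 signal of this probe, from the control cells, also moved by 0.76 over the 6 arrays, and 97.7% of tested probes had a smaller Cy3 SD.

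HSPE1, the HSP10 lid of the HSP60 chamber, was steadier. Probe A_23_P56922, whose junction sequence is given above, measured -0.12, -0.20 and 0.10 under miR-338-5p, against -0.52, -0.46 and -0.73 under miR-421. Every miR-421 array was lower than every miR-338-5p array. The means were -0.07 ± 0.15 (SD, n = 3; limma, adjusted p = 0.632) and -0.57 ± 0.14 (SD, n = 3), or 67.3% of control (limma, adjusted p = 0.01). A_33_P3325306, which shares 31 of its 60 bases with it, gave -0.14 ± 0.13 and -0.61 ± 0.15 (SD, n = 3 each; limma, adjusted p = 0.339 and 0.00839). The shared bases mean that these probes are not independent readings. The miR-421 call of A_23_P56922 was lost without miR-421 replicate 2 (-0.49, adjusted p = 0.0645 by limma) and with median centring in place of loess (-0.23, adjusted p = 0.202 by limma, the highest over its alternatives). The genes start back to back on opposite strands, and a second RefSeq window of HSPD1 shares 204 bases with that of HSPE1. HSPD1 minus HSPE1 in log2 ratio ranged from -1.08 on miR-421 replicate 1 to 1.59 on miR-421 replicate 2.

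**Figure D2:**
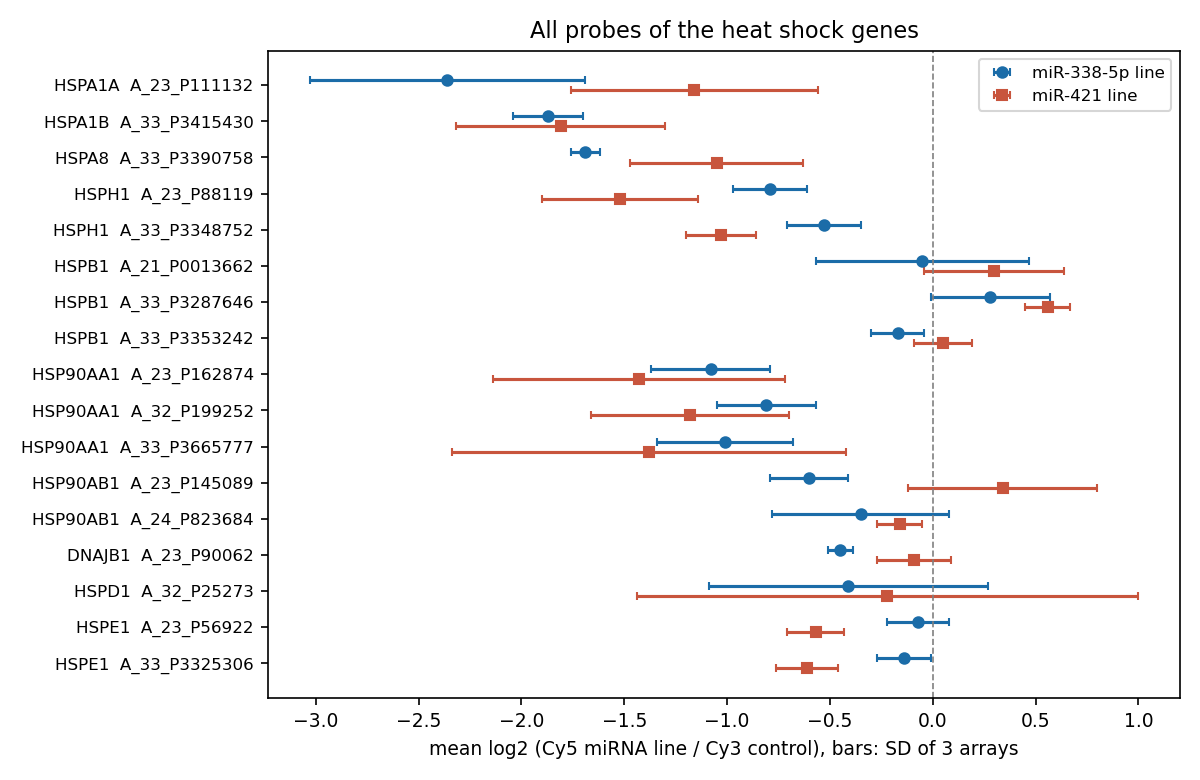
Mean log2 ratio of each of the 17 probes in either line, with bars of 1 SD over 3 arrays. The 3 HSP90AA1 probes and the 2 HSPH1 probes lie below 0 in both lines, both HSP90AB1 probes lie below 0 under miR-338-5p (-0.60 and -0.35), and the brightest HSPB1 probe lies above 0 in both.

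The signals of the single dyes show in which dye a probe moved. They were read after mean intensities were given the same distribution on all arrays. How steady a dye looks rests in part on that step. The control signal of HSPA1A stayed between 10.64 and 10.80 (log2 intensity) over the 6 arrays, while the signal of the miRNA lines ran from 7.76 to 10.21. HSPA8 stayed between 11.78 and 11.91 in Cy3 and ran from 10.10 to 11.29 in Cy5. For the 17 probes the median SD over 6 arrays was 0.08 in Cy3 and 0.34 in Cy5, against 0.07 and 0.19 for all tested probes. HSPD1 was the exception among the members, with a Cy3 SD of 0.31. As levels of different probes are not comparable, only the changes within a probe are read here.

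**Figure D3:**
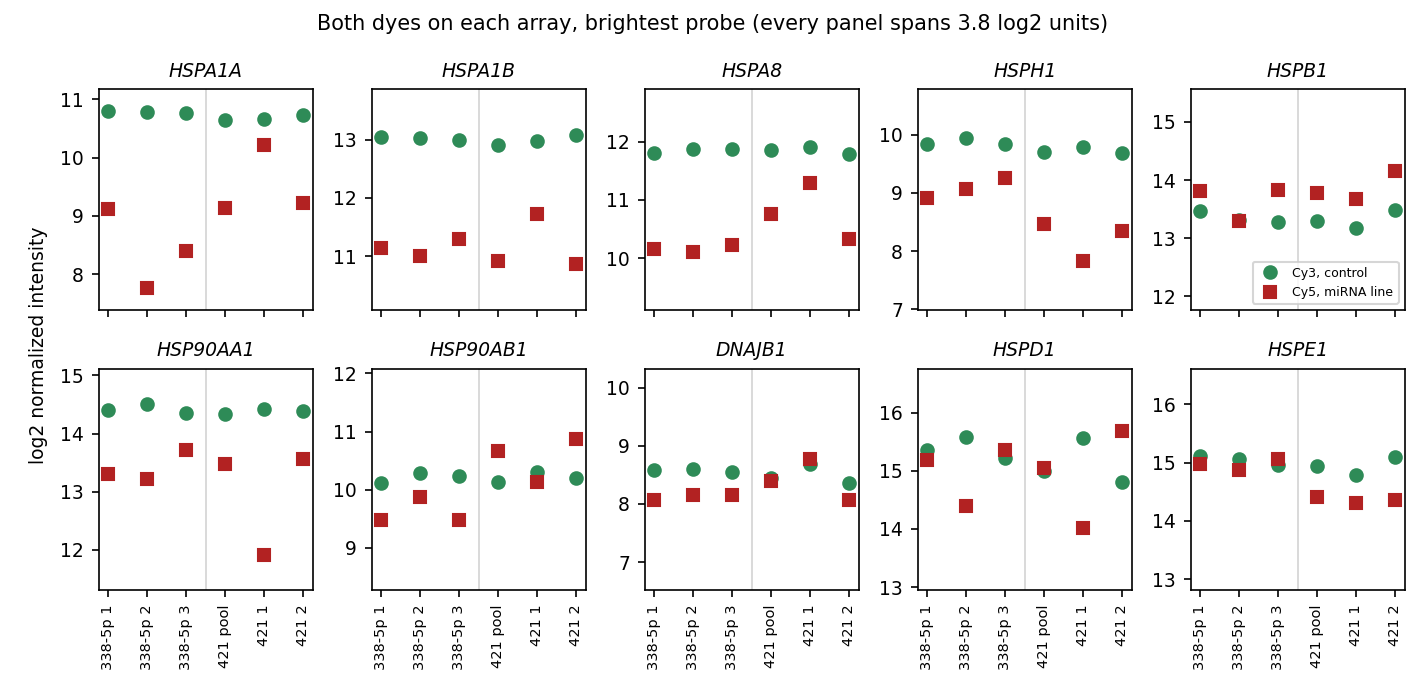
Log2 normalized intensity of control RNA (Cy3, circles) and of the miRNA line (Cy5, squares) on each array for the brightest probe of each gene, with the same span in every panel. The circles of HSPA1A stay between 10.64 and 10.80 while the squares fall as low as 7.76, and in HSPD1 both dyes move.

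The lines were then compared with each other, which cancels a control level or dye effect common to all arrays. A control difference between the lines, such as that in the Cy3 shares above, is not cancelled. No probe passed the threshold for the difference of miR-338-5p minus miR-421 (0 of 17 by limma, against 0.0473% of all tested probes). At an unadjusted p under 0.05, 8 of 17 passed, 4 of them lower under miR-338-5p, against 13.7% of all tested probes in either direction. The arrays of the lines did not overlap for 8 of 17 probes, against 19.8% of all tested probes. HSPA1A, HSPA8, HSP90AB1 and DNAJB1 had the lower values under miR-338-5p. The differences in log2 were -1.20 for HSPA1A (95% interval -2.25 to -0.16), -0.63 for HSPA8 (-1.15 to -0.12), -0.94 for the brighter HSP90AB1 probe (-1.53 to -0.35) and -0.36 for DNAJB1 (-0.63 to -0.09). HSPH1 and HSPE1 had the lower values under miR-421, with differences of 0.72 (0.22 to 1.23) and 0.50 (0.21 to 0.78). The limma adjusted p-values of these 6 genes lay between 0.184 and 0.311. For HSPA1B the difference was -0.06 with an interval of -0.70 to 0.58, and for HSPD1 -0.19 with an interval of -1.80 to 1.42, so both intervals include gaps of either sign.

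Other genes of the chaperone system were read from 8 lists with 67 genes, of which 64 were tested by their brightest probe. Under miR-338-5p 7 fell and 1 rose, with a median log2 ratio of -0.17, beside the 5.41% of all gene symbols that fell and 4.23% that rose. Under miR-421 15 fell and 6 rose, with a median of -0.16, beside 13.5% and 10.2%, so the count that rose was no larger a share than over all genes in either line. The median of all genes was 0 in both. The difference between the lines passed for 0 of 64 by limma (0.0315% of all gene symbols), and 14 had an unadjusted p under 0.05, against 15% of all gene symbols. The lists had been written with earlier results of these arrays known, so the counts are a description. HSF4, HSPA4, HSPA4L, CCT3, CCT8, TRAP1, GRPEL1, PTGES3, CHORDC1, PPID, STIP1, CRYAA and HSPB6 complete small counts in the following paragraphs. They were named after their values were seen, and their calls were not followed singly through the alternatives.

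Among the heat shock factors and their regulator, HSF1, the main activator of the heat response, did not pass in either line. It measured 0.42 ± 0.30 in the miR-338-5p line and 0.41 ± 0.32 in the miR-421 line (SD, n = 3 each; limma, adjusted p = 0.14 and 0.102). Its other probes gave 0.60 and 0.10 with miR-338-5p, or 0.38 and 0.07 with miR-421, also without a call. HSF2, a partner factor of HSF1, measured -0.56 ± 0.32 under miR-338-5p (SD, n = 3; limma, adjusted p = 0.0665) and fell under miR-421 (-0.78 ± 0.26, SD, n = 3; limma, adjusted p = 0.0183). HSBP1, which binds the HSF1 trimer, fell in both lines (-0.52 and -0.40; limma, adjusted p = 0.0396 and 0.0474). Those calls held under 6 and 4 of 17 alternatives, with limma adjusted p-values up to 0.168 and 0.195. Its second probe, also at -0.52 and -0.37, did not pass. HSF4 fell in both lines (-0.34 and -0.26; limma, adjusted p = 0.0221 and 0.0238). Of the 4 genes on the list, 2 fell with miR-338-5p and 3 with miR-421, beside 5.41% and 13.5% of all gene symbols. The list is short and the HSBP1 calls mostly did not hold, so the counts are only a description.

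Of 8 J-domain partners, 1 fell and 1 rose in both lines. Over all gene symbols 5.41% fell and 4.23% rose under miR-338-5p, and 13.5% fell and 10.2% rose under miR-421. Single genes of 8 are therefore no result about the list. DNAJA1, a cytosolic partner of HSPA8, measured -1.03, -0.94 and -1.08 under miR-338-5p, against -1.28, -0.62 and -1.24 under miR-421. It was lower than control on all 6 arrays and fell in both lines (-1.01 and -1.05; limma, adjusted p = 0.015 and 0.00775). DNAJB2, a partner that delivers clients for degradation, measured 1.03, 0.91 and 1.22, then 0.50, 0.95 and 1.05. It was higher than control on all 6 arrays and rose in both lines (1.05 and 0.83; limma, adjusted p = 0.0117 and 0.00968). Its second probe rose as well (0.47 in both lines; limma, adjusted p = 0.0269 and 0.0156). The other 6 of 8 genes on the list did not pass in either line.

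Of the other 9 HSP70 and HSP110 family genes, HSPA2, best known from testis, fell under miR-338-5p (-0.92 ± 0.17, SD, n = 3; limma, adjusted p = 0.0427), a call that held under 7 of 17 alternatives (highest limma adjusted p 0.162). HSPA2 measured -0.09 ± 0.55 under miR-421 (SD, n = 3; limma, adjusted p = 0.778). HSPA14, a ribosome-associated HSP70, fell under miR-421 (-1.0 ± 0.30, SD, n = 3; limma, adjusted p = 0.00623) as did HSPA4 (-0.42) and HSPA4L (-0.51). The TRiC chaperonin, a ring that folds actin and tubulin, had 1 of 8 subunits lower in the miR-338-5p line and 4 of 8 in the miR-421 line, with none higher. Over all gene symbols 5.41% and 13.5% fell, so the single subunit in the miR-338-5p line is no result about the ring. CCT6A fell in both lines (-0.52 and -0.74; limma, adjusted p = 0.0306 and 0.00786), and its calls held under 7 and 15 of 17 alternatives (highest limma adjusted p 0.119 and 0.0683). CCT2 fell under miR-421 (-1.23 ± 0.78, SD, n = 3; limma, adjusted p = 0.0285), with replicate 1 at -2.14 and the other arrays at -0.82 and -0.74. CCT3 (-0.59) and CCT8 (-0.69) fell with it. CCT8 measured -1.24 on miR-421 replicate 1, against -0.41 on the pool and -0.42 on replicate 2. All 4 subunits that fell under miR-421 were lowest on replicate 1.

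Of the 13 mitochondrial chaperones and proteases, 1 fell under miR-338-5p, and 2 rose and 1 fell under miR-421. These counts are near the shares over all gene symbols (5.41% lower under miR-338-5p, 10.2% higher and 13.5% lower under miR-421). LONP1, a protease of the mitochondrial matrix, measured 0.82, 1.18 and 1.04 on the miR-421 arrays and 0.31, 0.09 and 0.21 on the miR-338-5p arrays. The groups did not overlap, and LONP1 rose under miR-421 (1.01 ± 0.18, SD, n = 3; limma, adjusted p = 0.00317), a call that held under all 17 alternatives. The difference between the lines was -0.81 (limma, adjusted p = 0.0893). SPG7, a protease of the inner mitochondrial membrane, fell under miR-338-5p by its brightest probe (-0.61; limma, adjusted p = 0.0466). That call held under 5 of 17 alternatives (highest limma adjusted p 0.17), and the value was -0.24 with the mean of its probes. Of its 5 probes, 2 passed and the others lay between -0.18 and 0.06. TRAP1, the mitochondrial HSP90, rose under miR-421 (0.63, limma adjusted p = 0.00622). GRPEL1, an exchange factor of mitochondrial HSP70, fell under miR-421 (-0.40, limma adjusted p = 0.0432).

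The HSP70 cofactors had 0 of 8 past the threshold in either line by limma. At an unadjusted p under 0.05 0 passed in the miR-338-5p line and 2 in the miR-421 line, against 28.9% and 40.1% of all gene symbols. Among 9 HSP90 cochaperones PTGES3, the p23 that closes the HSP90 cycle, fell in both lines (-0.36 and -0.37, limma adjusted p = 0.0408 and 0.0238). Under miR-421 CHORDC1 (-0.66, limma adjusted p = 0.0109) and PPID (-0.25, limma adjusted p = 0.05 when rounded) fell as well. STIP1, which links HSP70 to HSP90, rose under miR-421 (0.37, limma adjusted p = 0.033). Over all gene symbols 13.5% fell and 10.2% rose under miR-421. Of 5 tested small heat shock proteins 0 passed under miR-338-5p by limma, where 5.41% of all gene symbols fell and 4.23% rose. At an unadjusted p under 0.05, 1 of 5 passed under miR-338-5p and 4 of 5 under miR-421. The shares over all gene symbols were 28.9% and 40.1%. Under miR-421 HSPB6 (0.62, limma adjusted p = 0.0285) and CRYAA (0.24, limma adjusted p = 0.0461) rose.

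**Figure D4:**
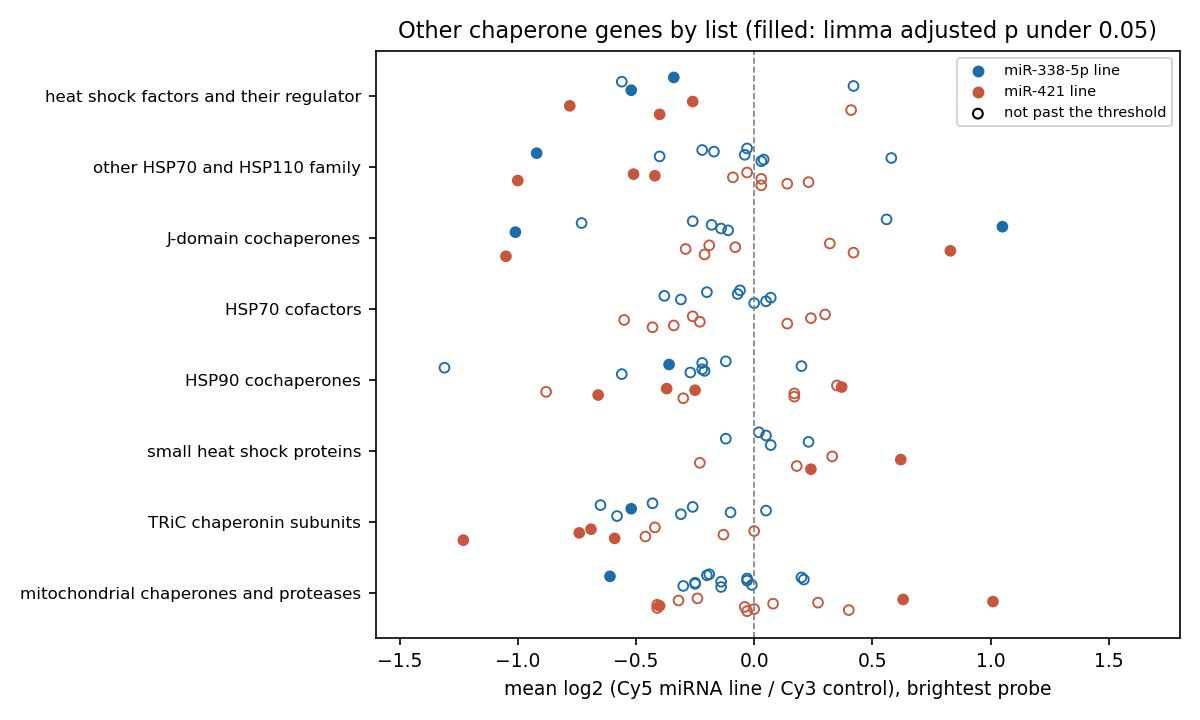
Mean log2 ratio of the brightest probe of 64 other chaperone genes in either line, by list, with filled circles for a limma adjusted p under 0.05. DNAJA1 lies near -1 and DNAJB2 near 1 in both lines, TRiC subunits lie mostly below 0, and LONP1 stands at 1.01 under miR-421.

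Leaving out single arrays changed the counts in the other lists. Without miR-338-5p replicate 1, 0 of 64 passed under miR-338-5p, and without replicate 2 or replicate 3, 1 passed. Without the miR-421 pool and miR-421 replicate 2 in turn, 4 and 2 passed. Under miR-421, 1 of 64 passed without miR-421 replicate 2, 11 without the pool, and 14 without replicate 1 of either line. Without miR-421 replicate 2 the miR-421 calls of DNAJA1 (-0.95), DNAJB2 (0.73), HSPA14 (-0.93), CCT2 (-1.48), CCT6A (-0.77), HSF2 (-0.75) and HSBP1 (-0.34) missed the threshold, and LONP1 kept it. For the 10 heat shock genes the miR-338-5p count of 5 became 3, 2 and 2 without its replicates 1, 2 and 3, and 3 without the miR-421 pool. The miR-421 count of 7 became 4 without the pool and 3 without replicate 2. With a trended and robust variance 0 of 10 genes passed under miR-338-5p, where the limma adjusted p-values of HSPA1A, HSPA1B and HSPA8 were all 0.0605.

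**Figure D5:**
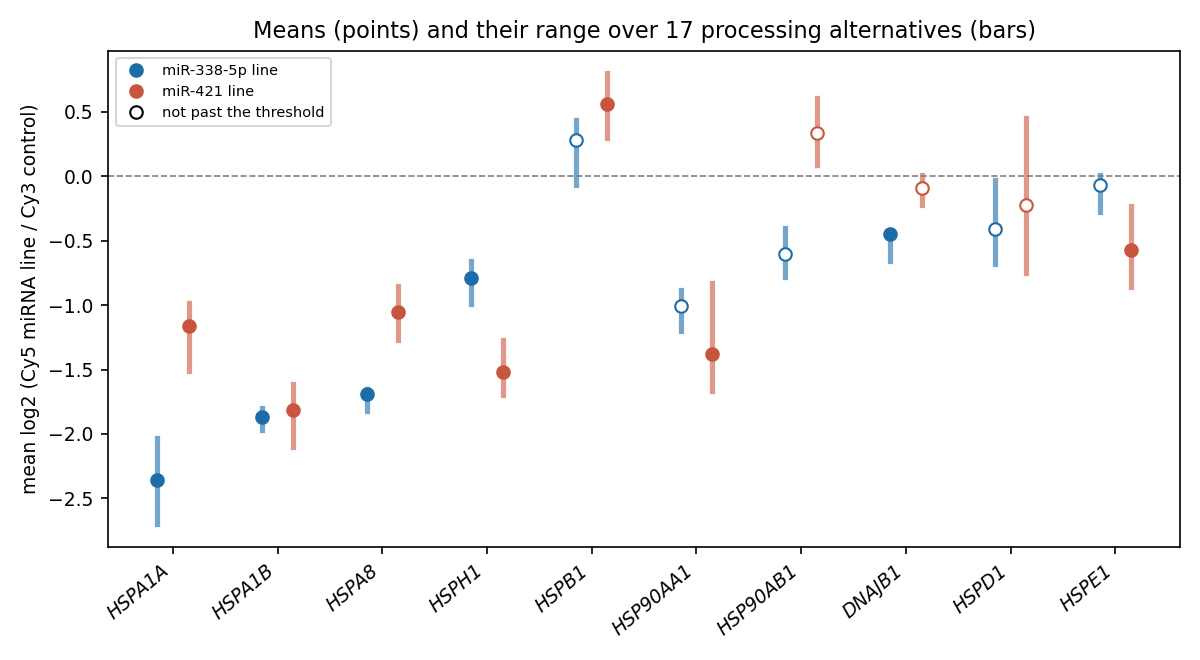
Main mean log2 ratio of each gene's brightest probe (point, open where not past the threshold). Bars run from the lowest to the highest mean over 17 alternatives, which include leaving out single arrays. HSPA1A, HSPA1B, HSPA8, HSPH1 and HSP90AA1 stay below 0 in both lines over all alternatives, while HSPD1 under miR-421 runs from -0.75 to 0.45.

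The genes whose pattern over the 6 arrays was most like the median of the 10 heat shock genes were chosen by Pearson's r among 3510 genes whose ratio spanned at least 1. They were lnc-DYDC1-3 (r = 0.978), LOC730183 (0.973), TMEM134 (0.971), MARC2 (0.962) and MESP1 (0.961). Over 6 arrays, 22 of the 3510 genes had an r above 0.9. These values describe the arrays, which share a control and a slide, and are no test.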

How the data were processed

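RNA was measured on 6 Agilent 2-colour arrays. Per the file headers, Feature Extraction 11.5.1.1 made the deposited spot intensity values (mean signal and local background median of both dyes, without normalization). That software also wrote the deposited log10 ratio, Cy5 over Cy3. The authors' deposited series table held log2 ratios. It tracked the software's ratio with slopes from 0.999 to 1.004 and array medians from -0.16 to 0.03, so scale and direction are known and its centring is not. Per the labels' protocols, total RNA received a poly(A) tail before oligo-dT labelling. Probe positions are on hg19, per the file headers.

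With R 4.3.3 and limma 3.58.1, background was corrected by normexp (offset 50). For the ratios, arrays were normalized singly by loess, control spots at weight 0. Levels of single dyes were taken after a further step (Aquantile) that gives mean log2 intensities the same distribution on all arrays. That step leaves the ratios as they were. Outlier spots were left out and spots of a probe averaged. A probe had to stand well above background, in Cy3 or Cy5, on 3 or more of the 6 arrays. One fit held all 6 arrays with a mean per group (eBayes, prior degrees of freedom 2.05). Each mean was tested against 0, and the difference was tested, with Benjamini-Hochberg adjustment over tested probes at 0.05, two-sided. Whether 1 control culture supplied every array is unknown, and if so the test against 0 leaves out the control's spread. The fit was run on simulated data with known shifts and independent noise for each probe. Those data held no deviation shared by the probes of an array, so the run only checks the code.

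Named were all members with all probes, HSF1 and HSF2, the up to 6 listed chaperone genes past the threshold with the largest absolute values per comparison, and the 5 most alike genes. A gene's probe is its brightest. Some listed marker genes are not reported here. The members and lists were chosen with earlier results of these data known. Of 17 probes, 16 matched a RefSeq accession with the same symbol (GRCh38.p14). Alternatives covered background, normalization, ratio source, dim-probe filter, outlier spots, arrays in the fit, variance model, probes per gene and a replicate block. Precision is limited by the number of arrays.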

Additional observations from a re-analysis of the deposited data

How the results depend on the processing

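The 10-gene count under miR-338-5p (5) became 3 with local background subtracted, with the authors' table or with the software's own ratio, 2 with its own 3 arrays and 0 with a trended and robust variance. It ranged from 2 to 7 with 1 array left out. Under miR-421 the count of 7 ranged from 3 to 7 with 1 array left out and stayed within 1.5 times otherwise. The count of 8 chaperone-list genes under miR-338-5p became 4 with background subtracted or no filter on dim probes, 3 with the software's ratio, the authors' table or its own arrays, and 0 with the trended variance, and ranged from 0 to 11 with 1 array left out. The count of 21 under miR-421 became 11 with median centring, 12 with no filter and 13 with its own arrays, and ranged from 1 to 19 with 1 array left out. The cause was not tested.

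Values that changed sign had all missed the threshold in the main analysis. With median centring these were HSPE1 under miR-338-5p (0.01), HSPB1 probe A_33_P3353242 (-0.01) and HSPD1 (0.16) under miR-421, and the differences of DNAJA1 (-0.10) and HSF1 (-0.19). DNAJB1 under miR-421 became 0.00 with the authors' table and with the software's ratio. That table also turned HSPB1 under miR-338-5p (-0.07) and the difference of DNAJB2 (-0.04). With 1 array left out, HSPB1 probe A_21_P0013662 under miR-338-5p ran from -0.25 to 0.25. Under miR-421 HSPB1 probe A_33_P3353242 ran from 0.00 to 0.13, DNAJB1 from -0.17 to 0.01, HSPD1 from -0.75 to 0.45 and HSPA2 from -0.40 to 0.12. The differences ran from -0.26 to 0.23 for HSPA1B, -0.86 to 0.35 for HSPD1, -0.08 to 0.25 for DNAJA1, -0.15 to 0.16 for HSF1, and -0.05 to 0.59 and -0.18 to 0.66 for HSP90AA1 probes A_23_P162874 and A_33_P3665777.

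With the replicate number as a block, 0 member genes and 0 listed genes passed for the difference, and the differences of DNAJB2, DNAJA1 and HSF1 became -0.03, -0.05 and -0.03. The deviations of same-numbered arrays of the lines correlated at -0.14 and -0.211 across probes. Such values cannot show whether same-numbered arrays were prepared together. Slide or scan as a block was not run because all arrays lay on 1 slide with 1 scan time. With 3 arrays per line, wide intervals such as that of HSPD1 cannot tell a fall from a rise.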
